A study of Mus musculus with 29 samples.

Results

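The genes described here were 41 genes of mitosis and DNA replication, taken by symbol from a count table of 24421 mouse genes in which all 41 were present. They comprised 28 mitosis genes, 12 DNA replication genes and Hmgb2, a chromatin protein that is abundant in dividing cells. Every mouse was a female C57BL/6J mouse, 5 to 6 weeks old when the experiment began, and received an intraperitoneal injection of YTN16 cells, a mouse gastric cancer line, on day 0. Groups differed in the antibodies given into the peritoneal cavity, against the T cell checkpoint receptors PD1 and CTLA4, either alone or together (dual ICI). Untreated mice received PBS. Injections fell on days 5, 8 and 12, and for the longer experiment also on days 21 and 28. Tissue was taken on day 21 (3wk) from 5 untreated and 5 dual ICI mice, and on day 35 (5wk) from 5 untreated, 5 anti-PD1, 4 anti-CTLA4 and 5 dual ICI mice, which gave 29 libraries of bulk RNA. The labels give the dual ICI libraries of 5wk as 1 group. The study's text numbers the mice of this group and calls some of them uncured and the others cured, and the replicate numbers of the labels were matched to these mouse numbers, which gave 2 dual ICI-uncured libraries (replicates 1 and 5) and 3 dual ICI-cured libraries (replicates 2, 3 and 4). The labels call the material tumor tissue, while the study's methods describe stripped peritoneum with or without nodules.

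A cell that divides copies its DNA in S phase and separates the copies in mitosis. The MCM proteins are the subunits of the helicase that opens the DNA, Cdc6 loads them at replication origins, Cdc45 and the GINS complex turn them on, Pcna is the clamp that holds the polymerases, and Rrm2 and Tyms make the nucleotides. Cdk1 with the B cyclins drives entry into mitosis, the aurora and polo kinases and the kinesins build and run the spindle, kinetochore proteins couple chromosomes to it, and Cdc20 and Ube2c act with the anaphase-promoting complex to end mitosis. Ki-67, the product of Mki67, is the standard pathology marker of cycling tumor cells, and T cells that have been activated also cycle, so in a tumor infiltrated by T cells the same transcripts can come from both.

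Promoters of mitosis genes are known for the CHR element (TTTGAA), which is bound by the MuvB complex with B-Myb and FoxM1, and for CCAAT boxes bound by NF-Y, while promoters of replication genes are known for E2F sites. RefSeq promoter windows, from 250 bases before to 50 bases after a transcription start (build GRCm38.p6), were at hand for 35 of the 41 genes, in 36 windows. These letters were searched on both strands, and E2F sites were searched as TTTCCCGC, TTTGGCGC, TTTGCCGC and TTTCGCGC, of which some matches overlap each other, as do some CCAAT matches on opposite strands. TTTGAA stood in 18 of the 24 windows of mitosis genes (75%), against 17.9% of all 32851 windows, and CCAAT stood in 79.2% of the mitosis windows and 81.8% of the 11 replication windows, against 37.4% of all. An E2F site stood in 5 of the 11 replication windows (45.5%), those of Mcm3, Mcm5, Mcm6, Mcm7 and Cdc6, and in 1 mitosis window (4.17%), that of Cdk1, against 2.26% of all windows. A match describes letters and is not a measured binding site. The 200 bases before the start are shown for 6 genes whose values are followed below, 4 of mitosis and 2 of replication, with the CHR, the CCAAT and the E2F letters in capitals on either strand. They lie at chr7:135716380-135716579 on the minus strand, chr11:99024190-99024389 on the minus strand, chr10:69352913-69353112 on the minus strand, chr2:164769729-164769928 on the plus strand, chr8:75109309-75109508 on the plus strand, and chr11:98907951-98908150 on the plus strand. Each is just upstream of the RefSeq start of its window and read 5′ to 3′ in the direction of the gene. By the GENCODE coordinates used for exon lengths, the Cdc6 stretch lies inside the gene, and those of Cdk1 and Ube2c overlap the start of theirs.
Mki67: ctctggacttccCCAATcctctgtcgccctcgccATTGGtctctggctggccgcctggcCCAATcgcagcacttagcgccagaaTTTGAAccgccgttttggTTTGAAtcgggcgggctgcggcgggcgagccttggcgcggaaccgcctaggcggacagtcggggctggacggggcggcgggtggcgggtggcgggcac
Top2a: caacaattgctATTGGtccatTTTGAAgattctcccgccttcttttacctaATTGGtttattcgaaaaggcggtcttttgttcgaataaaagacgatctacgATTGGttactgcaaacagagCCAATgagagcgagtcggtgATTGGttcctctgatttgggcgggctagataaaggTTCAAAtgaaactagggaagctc
Cdk1: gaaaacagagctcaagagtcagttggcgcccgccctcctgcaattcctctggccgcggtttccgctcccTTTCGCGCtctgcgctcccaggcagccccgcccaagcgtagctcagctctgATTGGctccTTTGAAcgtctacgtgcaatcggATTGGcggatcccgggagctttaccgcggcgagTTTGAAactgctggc
Ube2c: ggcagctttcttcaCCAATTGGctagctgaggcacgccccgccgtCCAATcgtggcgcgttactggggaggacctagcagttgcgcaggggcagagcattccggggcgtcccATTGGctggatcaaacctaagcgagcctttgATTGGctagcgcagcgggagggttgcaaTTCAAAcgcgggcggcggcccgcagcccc
Mcm5: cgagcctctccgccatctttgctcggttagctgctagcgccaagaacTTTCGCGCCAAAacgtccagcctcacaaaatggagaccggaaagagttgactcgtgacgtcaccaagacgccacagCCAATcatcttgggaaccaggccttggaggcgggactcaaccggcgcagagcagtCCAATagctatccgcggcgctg
Cdc6: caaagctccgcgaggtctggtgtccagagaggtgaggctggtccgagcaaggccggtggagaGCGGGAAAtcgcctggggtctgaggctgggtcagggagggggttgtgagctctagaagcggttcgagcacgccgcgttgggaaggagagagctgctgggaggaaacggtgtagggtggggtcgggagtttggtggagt
Mki67, Top2a, Cdk1 and Ube2c each hold TTTGAA together with CCAAT in these 200 bases. Mcm5 holds CCAAT and overlapping E2F letters, and Cdc6 holds an E2F match alone.

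The libraries held between 25989217 and 31219650 counts. Values are given as CPM, the count scaled by a library size that was adjusted with edgeR's TMM factors over all 29 libraries, so that a value is not the count divided by the total alone. The factors were 0.698 to 0.730 in the cured libraries, 0.692 in anti-PD1 replicate 5 and 0.791 to 1.22 in the others, and a factor below 1 raises CPM. Shares of all counts use the plain totals, and the score of a set of genes is the mean of their log2 CPM in a library. The labelled tumor tissue was checked with cell type markers. The epithelial level, the mean log2 CPM of Epcam and Cdh1, which mark the cancer cells, was 6.68 or higher in 25 libraries. It lay between -0.09 and 2.23 in the 3 dual ICI-cured libraries and at 2.15 in anti-PD1 replicate 5. The sum of 8 skeletal muscle genes was between 228788 and 256832 CPM in the cured libraries, so that the defining transcripts of the labelled tumor were near 0 and muscle transcripts were abundant. Anti-PD1 replicate 5 therefore stood apart from the other 4 of its group and had a profile like that of the cured libraries. The study's text speaks of a cured mouse under anti-PD1, but the labels do not mark which library came from it. The anti-PD1 comparison is given with and without it. Slopes on a single marker level are also given without it and the cured libraries, and the correlations leave these libraries out. The fit with the epithelial and the T cell level together was run only with it. In bulk tissue, fewer cells of a type and less RNA per cell cannot be told apart. The labels number the libraries of a group without saying that each came from a separate mouse, and p-values measure the spread between these libraries.

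The 41 genes together made up 0.0122% ± 0.000459 (SD, n = 3) of all counts in dual ICI-cured libraries and 0.0828% ± 0.0340 (n = 5) in untreated libraries at 3wk. The share was 0.131% ± 0.0804 (n = 5) under dual ICI at 3wk, 0.109% ± 0.0491 (n = 5) in untreated libraries at 5wk, 0.108% ± 0.0554 (n = 5) under anti-PD1, 0.117% ± 0.0273 (n = 4) under anti-CTLA4 and 0.158% ± 0.0354 (n = 2) in dual ICI-uncured libraries. All tumor-bearing groups overlapped, and the cured libraries lay below every other library, with anti-PD1 replicate 5 next at 0.0132%. Replication genes held more of their level in the cured tissue than mitosis genes did. The mitosis score had a mean of 3.74 ± 0.54 (SD, n = 5) in untreated 5wk libraries and of 0.02 ± 0.05 (n = 3) in cured libraries, while the replication score was 4.56 ± 0.55 and 2.51 ± 0.05. The mitosis score minus the replication score was therefore between -2.50 and -2.48 in the cured libraries, -1.79 in anti-PD1 replicate 5, and between -1.09 and -0.42 in the other 25 libraries.

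**Figure D1:**
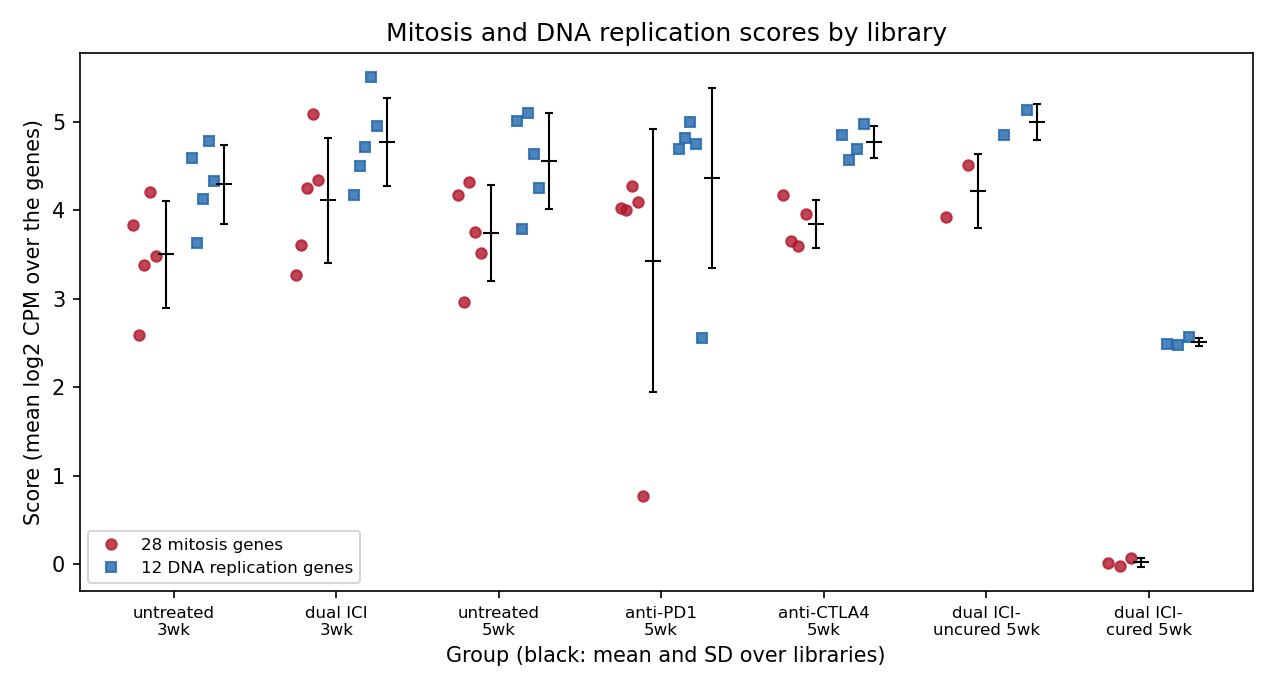
Score (mean log2 CPM) of the 28 mitosis genes and the 12 DNA replication genes in each of the 29 libraries by group, with the mean and SD of each group in black. The 3 cured libraries sit near 0 for mitosis and near 2.5 for replication, anti-PD1 replicate 5 sits at 0.77 and 2.56, and the other groups overlap.

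Levels between genes were compared per kilobase of exon. In untreated 5wk libraries the highest were Mcm7 at 29.2 ± 10.4 CPM per kilobase (SD, n = 5), Pcna at 24.1 ± 4.98 and Hmgb2 at 20.3 ± 6.30, and the lowest was Ttk, a spindle checkpoint kinase, at 0.628 ± 0.319. In cured libraries Pcna led with 14.8 ± 1.46 CPM per kilobase (SD, n = 3), followed by Mcm7 at 4.99 ± 0.143 and Mcm4 at 3.65 ± 0.476, and Ttk was at 0.0333 ± 0.0108. Exons of 6 of the genes overlap another counted gene (Ccna2, Cdc20, Cdca8, Gins2, Mcm7 and Ube2c, of which Ube2c overlaps the skeletal muscle gene Tnnc2), and Ccnb1, Ccnb2, Pcna and Tyms have named pseudogenes, so these counts are less certain, above all in muscle-rich cured tissue.

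The comparison of untreated with cured peritoneum at 5wk asked how far the division transcripts went with the tumor. All 28 mitosis genes and 11 of 12 replication genes, with Hmgb2, were higher in untreated tissue (40 of 41 genes; edgeR's quasi-likelihood test, Benjamini-Hochberg adjusted p under 0.05), where 26.7% of the 15816 genes tested were called higher. The median log2 fold change was 3.55 over the 41 genes and 0.05 over all genes tested, with 4.04 for mitosis and 2.28 for replication. No gene of the 41 was called lower. Along with these genes the epithelial markers were lower in cured tissue, the sum of 7 of them ranging from 1115 to 3791 CPM in untreated and from 16.2 to 93.4 CPM in cured libraries, and the sum of the 8 muscle markers ran from 37504 to 201226 CPM in untreated libraries, below the range in cured ones. Of the immune markers, those of T cells and neutrophils also separated the groups. The sum of 6 measured T cell genes was 12.6 to 23.3 CPM in untreated and 7.89 to 11.7 CPM in cured libraries. That of 3 measured neutrophil genes was 14.2 to 45.6 CPM against 0.585 to 1.99 CPM. Sums of macrophage markers (321 to 810 against 466 to 522 CPM) and of B cell markers (0.854 to 4.57 against 2.00 to 3.61 CPM) overlapped. None of these markers was at 0 in all cured libraries. With the epithelial level in the fit 0 of 41 genes were called (0% of all genes; median 0.84), and with the T cell level, the mean log2 CPM of Cd3e and Cd8a, 0 were called as well (0% of all genes; median 2.70). Tumor content, T cell content and group cannot be told apart here.

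Mki67 was measured at 66.5, 27.3, 82.8, 50.9 and 45.7 CPM in untreated replicates 1 to 5 and at 2.51, 3.70 and 3.15 CPM in cured replicates 2 to 4. The groups were far apart, with the lowest untreated library, replicate 2, several times above every cured one, and the log2 fold change was 4.10 ± 0.38 (SE; edgeR adjusted p = 0.000138). Top2a, the topoisomerase that untangles chromosomes before they part, gave 91.0, 32.1, 108, 60.1 and 54.2 CPM against 2.46, 3.22 and 2.86 CPM, a log2 fold change of 4.57 ± 0.42 (edgeR adjusted p = 0.000138). Hmgb2 had a log2 fold change of 2.75, from 61.0 ± 18.9 CPM (SD, n = 5) to 8.91 ± 0.268 CPM (n = 3).

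The 8 cyclins and mitotic kinases were all called, with a median log2 fold change of 4.40. Cdk1 had 22.5, 12.2, 27.8, 19.4 and 15.0 CPM in untreated and 0.61, 0.68 and 0.92 CPM in cured libraries, without overlap, and its log2 fold change was 4.68 ± 0.35 (SE; edgeR adjusted p = 0.000108). Its partner Ccnb1 had a log2 fold change of 5.37 ± 0.56, which rested on only 0.77, 0.24 and 0.19 CPM in the cured libraries. Plk1, the polo kinase, had 4.42 ± 0.38, and Aurkb, the kinase of the chromosomal passenger complex, 3.87 ± 0.40. Aurka, the kinase of the spindle poles, went against this order with only 0.77 ± 0.24 (edgeR adjusted p = 0.0261), its values being 8.30, 7.36, 12.7, 11.1 and 7.11 CPM against 5.38, 4.87 and 5.86 CPM. It was the mitosis gene that kept most of its level in cured tissue.

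The 10 kinetochore and checkpoint genes were all called with a median of 3.36, and they held the largest value of all. Cenpf, a kinetochore protein of G2 and mitosis, had a log2 fold change of 5.90 ± 0.54 (edgeR adjusted p = 0.000138) and rested on 3, 3 and 8 counts in the cured libraries, against 8.34 to 23.8 CPM in the untreated ones. Cenpa, the histone of the centromere, changed less, from 18.3 ± 5.51 CPM (SD, n = 5) to 4.64 ± 0.704 CPM (n = 3), a log2 fold change of 1.95. Among the 6 spindle and passenger genes (median 3.58), Kif2c, a kinesin that shortens microtubules, reached 5.32 ± 0.56 from 1, 7 and 5 cured counts, and Birc5, the passenger protein survivin, reached 3.98 ± 0.34. The exit genes Cdc20 and Ube2c had log2 fold changes of 4.80 ± 0.37 and 3.85 ± 0.32. These counts are few, so fold changes against cured tissue carry the counting error of the cured libraries.

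Replication genes formed a graded series. The 6 MCM genes were all called with a median of 2.01, from Mcm4 at 1.20 to Mcm5 at 2.94. Mcm5 had 41.8, 15.1, 50.4, 35.6 and 23.2 CPM in untreated and 4.50, 3.31 and 4.89 CPM in cured libraries, and Mcm2 had 41.7 ± 16.8 CPM (SD, n = 5) against 15.8 ± 0.946 CPM (n = 3), a log2 fold change of 1.37 ± 0.31. Both were separated between the groups. Rrm2, the ribonucleotide reductase subunit of S phase, had a log2 fold change of 3.70 ± 0.46 and Cdc6 of 2.30 ± 0.42. Pcna stayed high in cured tissue, at 36.7, 31.6 and 38.4 CPM against 67.6, 42.4, 68.3, 62.9 and 47.7 CPM, which gave a log2 fold change of 0.68 ± 0.18 (edgeR adjusted p = 0.0150). Cdc45 was the gene that did not pass, at 0.64 ± 0.25 (edgeR adjusted p = 0.0604), and its groups overlapped, with 4.99 CPM in the lowest untreated and 5.26 CPM in the highest cured library. Leaving out each library in turn, between 38 and 41 genes were called.

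The 2 dual ICI-uncured libraries against the 3 cured ones had the same treatment and time, and share the cured libraries with the comparison above. All 41 genes were called higher in uncured tissue, where 36.9% of 15796 genes were, with a median log2 fold change of 3.94 (0.05 over all genes), 4.56 for mitosis and 2.70 for replication. Mki67 had 66.7 and 87.3 CPM in uncured libraries, and its log2 fold change was 4.59 ± 0.19 (SE; edgeR adjusted p = 5.0e-07). Top2a had 77.8 and 119 CPM, a log2 fold change of 5.08 ± 0.22, and Mcm5 had 41.2 and 49.5 CPM, a log2 fold change of 3.39 ± 0.17. The order of the genes ran from Cenpf at 6.27, Ccnb1 at 5.84 and Kif2c at 5.68 down to Aurka at 1.25, Pcna at 0.81 and Cdc45 at 0.76 (edgeR adjusted p = 0.0136). T cell markers moved with the same contrast, 6 of the list's 8 being in the table and their sum lying between 36.6 and 38.1 CPM in uncured and between 7.89 and 11.7 CPM in cured libraries, and so did the 7 epithelial markers, at 3365 to 4178 CPM in uncured libraries. With the T cell level in the fit 0 of 41 genes were called (0.00633% of all genes; median 2.99), and with the epithelial level 0 were called (0% of all genes; median 3.09).

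**Figure D2:**
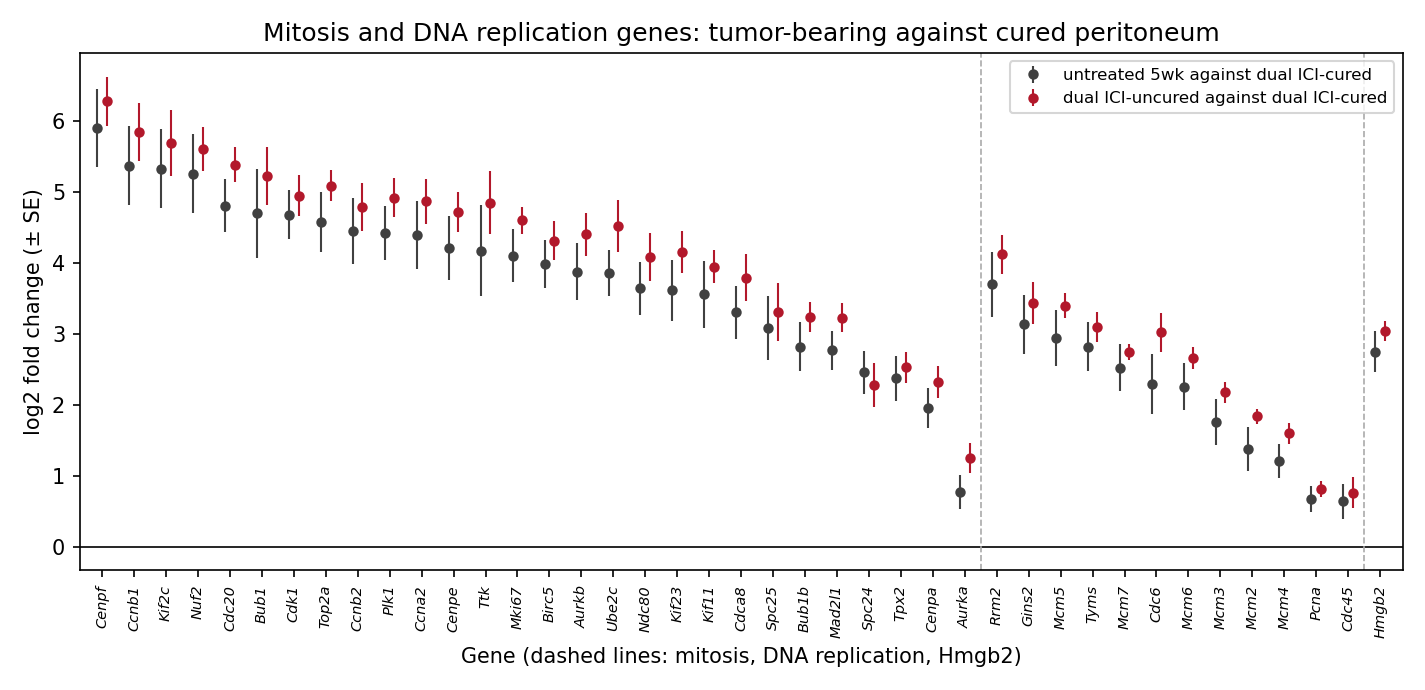
Log2 fold change (± SE) of each of the 41 genes in untreated and in dual ICI-uncured libraries against cured libraries at 5wk, ordered within mitosis, DNA replication and Hmgb2. Nearly all genes lie far above 0 in both comparisons, from Cenpf at 5.90 and 6.27 to Cdc45 at 0.64 and 0.76, and replication genes lie lower than mitosis genes.

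At 5wk, no antibody group that still carried tumor differed detectably from untreated mice in these genes. The comparisons share the 5 untreated libraries. With anti-PD1, 0 of 15640 genes passed (0% called; 205 genes at an unadjusted p under 0.05; 0 genes by DESeq2), and the median over the 41 genes was -0.01, ranging from Spc24 at -0.28 to Rrm2 at 0.32. Without replicate 5 the median was 0.26 and again 0 genes were called. The level of Rrm2 under anti-PD1 was 27.8, 58.6, 41.1, 32.6 and 3.20 CPM in replicates 1 to 5, against 36.8, 11.5, 38.1, 24.1 and 20.7 CPM in untreated libraries, so that the groups overlapped. With anti-CTLA4, 0 of 15781 genes passed (0% called; 128 at an unadjusted p under 0.05; 0 by DESeq2), the median over the 41 genes was 0.06, and they ran from Spc24 at -0.28 to Mcm2 at 0.32.

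Dual ICI-uncured libraries had 40 of 41 positive values against untreated 5wk libraries, with a median log2 fold change of 0.41 (-0.01 over all genes), and none passed: 0 of 16156 genes were called by edgeR's quasi-likelihood test (0% called; 787 at an unadjusted p under 0.05, which is 4.87%, none of them among the 41) and 17 genes by DESeq2, again none of the 41. The values ran from Spc24, a kinetochore subunit, at -0.19 to Cdc6 at 0.72 ± 0.39. Cdc6 had 8.63 and 9.65 CPM in uncured libraries and 7.41, 2.76, 8.41, 5.05 and 4.05 CPM in untreated ones. It was the only one of the 41 whose groups did not overlap, where 9.22% of all genes lay apart in this direction. Leaving out each library in turn moved the median between 0.12 and 0.63. Both marker levels lay apart as well, the epithelial level at 8.82 to 8.93 in uncured against 6.84 to 8.70 in untreated libraries and the sum of T cell genes at 36.6 to 38.1 CPM against 12.6 to 23.3 CPM. The median was 0.04 with the epithelial level as covariate and -0.81 with the T cell level, with 0 of the 41 called in either fit.

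When the 5 dual ICI libraries were taken as the single group the labels give, 0 of 15588 genes passed (0% called; 1071 at an unadjusted p under 0.05; 46 genes by DESeq2, none of the 41), all 41 values were negative with a median of -0.75, and they ran from Spc24 at -1.12 to Aurka at -0.14. This outcome depended on the fit. With all 29 libraries in it and cured and uncured libraries as separate groups, averaged by their number, 35 of the 41 were called lower (14.1% of all genes) with a median of -1.96. With the T cell level as covariate 34 were called lower (13.3% of all genes; median -1.78), with the replicate block none was called (median -1.86), and with the epithelial level none was called and the median was 0.08. This group joined uncured libraries, whose scores for the 41 genes were 4.25 and 4.74, to cured ones between 0.79 and 0.88.

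At 3wk the question was whether dual ICI changed division transcripts before tumors had cleared. All 41 genes had a positive log2 fold change against untreated libraries, with a median of 0.63 where the median of all genes was 0.02, yet none passed: edgeR's quasi-likelihood test called 89 of 15503 genes (0.574% called) and 0 of the 41, and DESeq2 called 502 genes and again 0 of the 41. An unadjusted p under 0.05 was reached by 9 of the 41 on the higher side, where 6.02% of all genes reached it. The groups overlapped for all 41 genes, where 1.83% of all genes lay apart on the higher side. The values ran from Cenpe, a kinetochore motor, at 0.92 ± 0.51, Ccnb1 at 0.91 ± 0.43 and Birc5 at 0.86 ± 0.37 down to Plk1 at 0.40 ± 0.29, Mcm2 at 0.37 ± 0.24 and Tyms at 0.25 ± 0.24 (SE).

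The libraries themselves varied widely within each group. Mki67 had 55.9, 22.3, 41.2, 82.8 and 44.1 CPM in untreated replicates 1 to 5 and 32.5, 44.9, 76.9, 164 and 93.7 CPM under dual ICI, a log2 fold change of 0.76 ± 0.43 (edgeR adjusted p = 0.590). Top2a had 77.1, 31.1, 59.8, 103 and 68.1 CPM against 48.6, 59.5, 116, 235 and 122 CPM (0.80 ± 0.42), and Cdk1 had 18.0, 6.97, 10.3, 20.9 and 11.9 CPM against 11.4, 15.5, 20.7, 38.1 and 22.3 CPM (0.68 ± 0.35). In all 3 genes the highest library was dual ICI replicate 4 and the lowest was untreated replicate 2, and dual ICI replicate 1 lay within the untreated range. Among replication genes, Mcm5 rested on 34.3, 13.7, 20.3, 32.6 and 26.0 CPM against 22.8, 32.4, 34.1, 59.9 and 45.9 CPM (0.63 ± 0.29), and Pcna on 57.1, 39.3, 41.3, 62.4 and 47.0 CPM against 50.3, 69.8, 64.3, 101 and 71.4 CPM (0.54 ± 0.19; edgeR adjusted p = 0.309). The median over the 41 genes was 0.36 without dual ICI replicate 4 and 0.85 without untreated replicate 4.

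These libraries differed in how much tumor they held. The epithelial level ran from 6.68 to 8.31 in untreated and from 6.85 to 8.69 in dual ICI libraries at 3wk, its highest value again in dual ICI replicate 4 and its lowest in untreated replicate 2. With this level as a covariate, the SE of the difference in Mki67 went from 0.43 to 0.11. Then 27 of the 41 genes were called higher under dual ICI at a given epithelial level, comprising 20 of 28 mitosis genes, 6 of 12 replication genes and Hmgb2, where 3.02% of all genes were called higher. The median log2 fold change was 0.57 (0.00 over all genes), from Tyms at 0.20 to Birc5 at 0.79. Hmgb2 was at 0.59 ± 0.09 (SE; edgeR adjusted p = 0.00249), Mki67 at 0.58 ± 0.11 (adjusted p = 0.0105), Top2a at 0.59 ± 0.11 (adjusted p = 0.00898), Cdc20 at 0.68 ± 0.12 (adjusted p = 0.00505) and Birc5 at 0.79 ± 0.14 (adjusted p = 0.00602). Of the other named genes, Ccnb1, Cdk1, Ube2c, Cenpa, Rrm2, Mcm5 and Pcna also passed, while Plk1, Aurkb, Mcm2 and Cdc6 had adjusted p-values between 0.0743 and 0.114 in the same edgeR fit. DESeq2 with the same covariate called 35 of the 41, and it also called more of all genes than edgeR did.

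This count depended on single libraries. Left out in turn, the 10 libraries gave between 13 genes (without untreated replicate 4) and 25 genes called, and the 7 epithelial markers in place of Epcam and Cdh1 gave 25. The number of all genes called changed with the libraries left out as well, as given below. T cell markers moved with the same contrast without overlap. The sum of 6 measured T cell genes was between 11.7 and 20.4 CPM in untreated and between 32.8 and 62.6 CPM in dual ICI libraries, and the T cell level was between 0.73 and 1.97 against between 2.78 and 4.01. The sum of 5 macrophage markers was between 702 and 804 CPM against between 822 and 1448 CPM. With the T cell level in the fit 0 of the 41 genes were called (0.00645% of all genes) and the median turned to -0.91. Dual ICI and T cell level separate the libraries in the same way at 3wk and cannot be told apart.

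**Figure D3:**
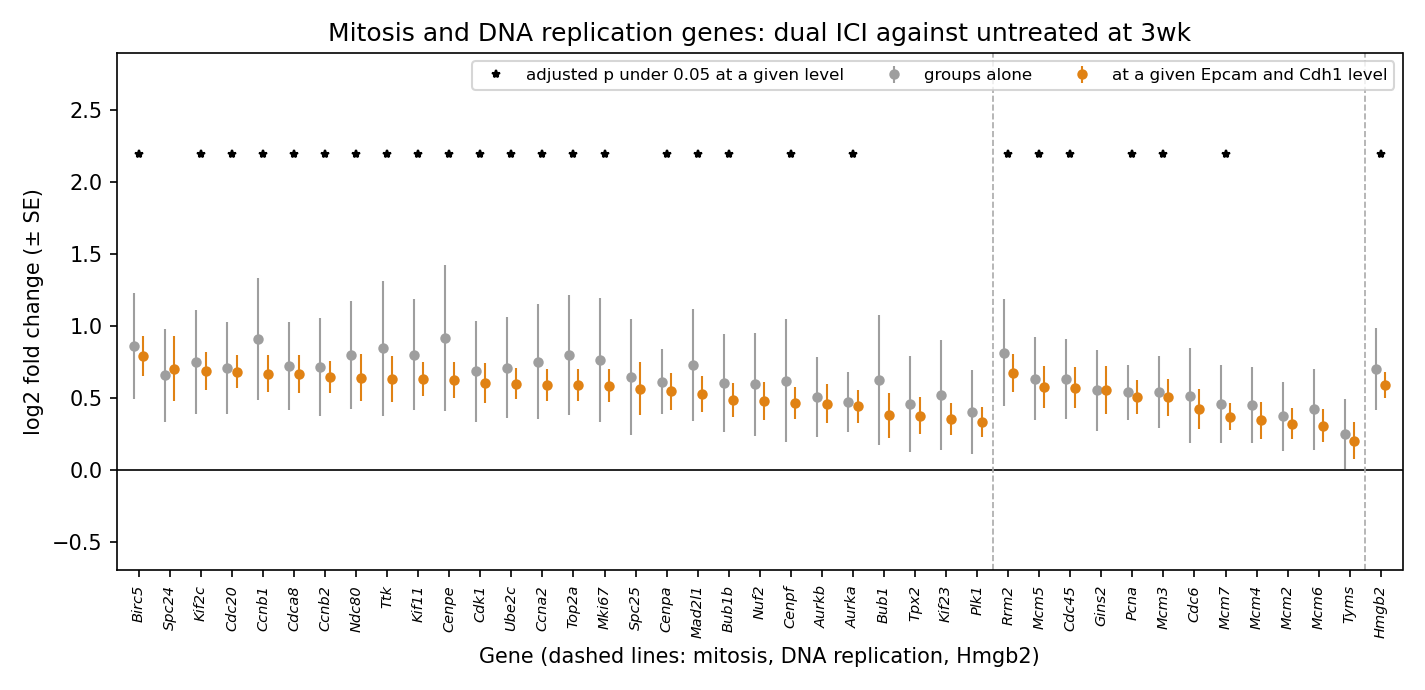
Log2 fold change (± SE) of each of the 41 genes under dual ICI against untreated at 3wk, without and with the epithelial level as covariate, ordered within mitosis, DNA replication and Hmgb2. All points lie above 0, the errors are smaller with the covariate, and a star marks the 27 genes with an adjusted p under 0.05 there.

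For the 41 genes, the effect of dual ICI in uncured mice at 5wk was not shown to differ from that at 3wk. The 5wk side held only the 2 uncured libraries, while the 3wk libraries were not chosen by outcome. With all 5 dual ICI libraries of 5wk the median against untreated was -0.75, where it was 0.63 at 3wk. The difference between those effects was not tested. The difference of the effect in uncured mice at 5wk and the effect at 3wk passed for 0 of 16542 genes (0% called by edgeR; DESeq2 called 1 gene, and none of the 41), with a median of -0.23 over the 41 genes and -0.04 over all genes, and none of the 41 reached an unadjusted p under 0.05.

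Untreated tumors at 5wk were compared with those at 3wk to follow the genes as the disease advanced. None of the 41 passed in edgeR's quasi-likelihood test, which called 1687 of 15604 genes (10.8% called), and the median was 0.18 (0.02 over all genes). An unadjusted p under 0.05 was reached by 4 of the 41, all higher at 5wk, where 17.1% of all genes reached it on that side. DESeq2 called 2 of the 41, among 3168 genes called in either direction. The lowest value was that of Bub1, a checkpoint kinase, at -0.22 ± 0.38, and the highest was that of Spc24 at 1.07 ± 0.33 (edgeR adjusted p = 0.0585). Spc24 had 5.75, 1.63, 3.13, 6.56 and 3.38 CPM at 3wk and 10.7, 6.02, 8.03, 11.0 and 7.19 CPM at 5wk. Only untreated replicate 2 of 5wk lay within the range of 3wk. Without that library, whose epithelial level of 6.84 was the lowest of its group, 6 of the 41 were called higher. In that fit 4915 genes were called in either direction, so the count is not particular to the 41. With the epithelial level as covariate none was called higher (6.46% of all genes) and 1 was called lower (4.81% of all genes). The mice of both time points were separate sets. The library names also carry a separate number series for each time point, whose meaning is not given. Time, set of mice and number series cannot be told apart.

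The 41 genes were then set against the tumor epithelium and the T cells across libraries. In a fit over all 29 libraries with a term for each group, the slope on the epithelial level was positive and passed for all 41 genes (edgeR's quasi-likelihood test; 30.8% of 16700 genes had a positive called slope). The median slope was 0.54 log2 CPM per unit of epithelial level (0.01 over all genes), with 0.60 for mitosis and 0.42 for replication. Cenpe had the steepest slope at 0.76 ± 0.08 and Pcna the shallowest at 0.15 ± 0.03 (SE), with Cdc45 at 0.16 ± 0.05 and Aurka at 0.20 ± 0.04 next to it. Mki67 was at 0.62 ± 0.07 and Mcm2 at 0.29 ± 0.05.

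Single libraries with little tumor weighed on the size of these slopes but not on their sign. Without the cured libraries and anti-PD1 replicate 5 all 41 passed (29% of genes), with a median slope of 0.71. In the 10 libraries of 3wk all 41 passed (22.5% of genes), with a median of 0.87 and Mki67 at 1.14 ± 0.09. In the 16 libraries of 5wk other than the cured ones 40 passed (27.8% of genes), and 30 passed without anti-PD1 replicate 5 (19.5% of genes), with a median of 0.55.

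On the T cell level, fitted alone in the same way, 20 of the 41 genes had a positive slope that passed (9.28% of genes), with a median of 0.87. That count rested on single libraries, being 0 without anti-PD1 replicate 2 and 38 without dual ICI replicate 5 of 3wk. The number of all genes called also changed widely over such fits, so these counts do not describe the 41 genes alone. Without the cured libraries and anti-PD1 replicate 5 it was 7 (2.83% of genes). With both levels in 1 fit, the epithelial slope passed for 40 genes (25.9% of genes; median 0.50), Cdc45 being the exception at 0.13 ± 0.06 (edgeR adjusted p = 0.0839). The T cell slope in that fit passed for 0 genes (0.0359% of genes; 5 of the 41 at an unadjusted p under 0.05) with a median of 0.24, from Plk1 at -0.05 to Rrm2 at 0.53. DESeq2 was not run on the slopes. The group terms leave only differences within groups for both slopes. There the T cell level had SDs from 0.02 in dual ICI-uncured to 0.53 in dual ICI 3wk libraries. The epithelial level had SDs from 0.08 in dual ICI-uncured to 2.84 in anti-PD1 libraries. The latter includes anti-PD1 replicate 5, and the fit with both levels was not run without it. The counts for both slopes therefore rest on unlike spreads and cannot be compared directly.

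**Figure D4:**
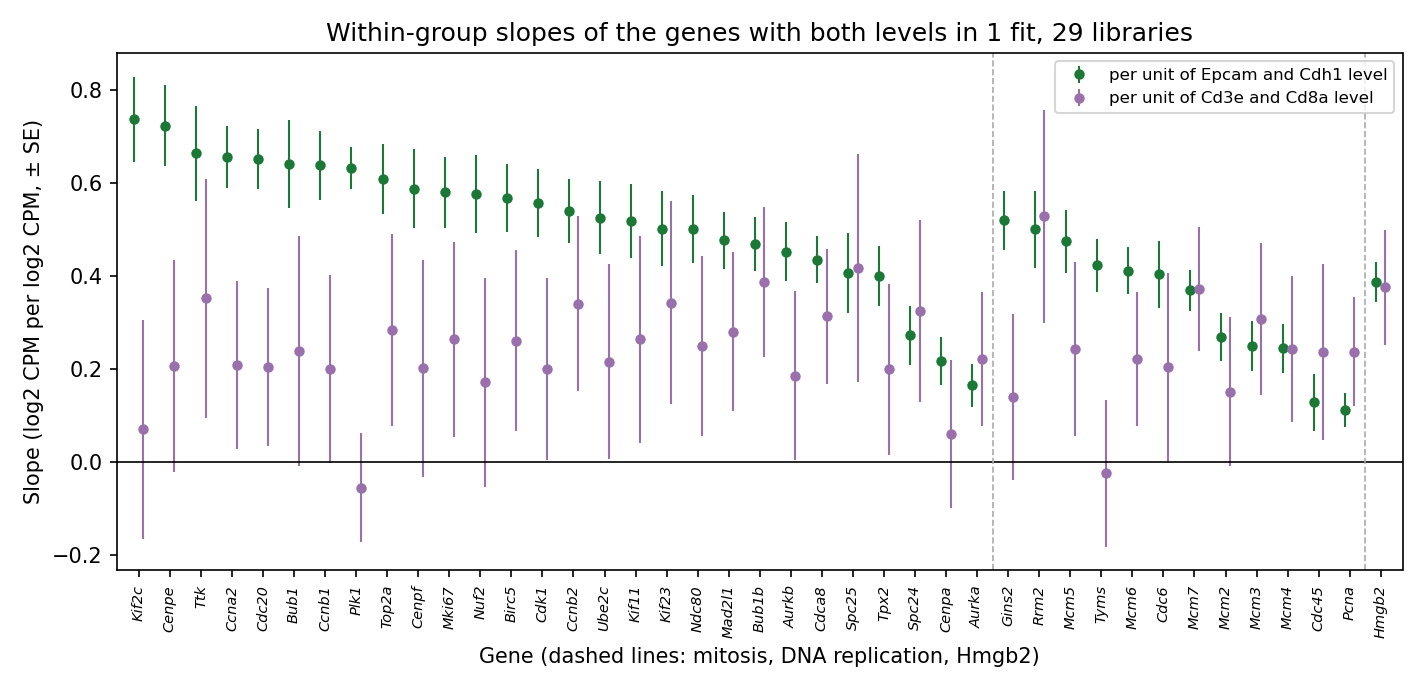
Slope (± SE) of log2 CPM on the epithelial level and on the T cell level for each of the 41 genes, from 1 fit with both levels and a term for each group over 29 libraries. Epithelial slopes lie above 0 for all genes, with Pcna at 0.11 and Cdc45 at 0.13 among the lowest, and T cell slopes have errors that reach 0 or come near it for most genes.

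Marker by marker, the correlation of the 41-gene score was taken over 25 libraries, since the cured libraries and anti-PD1 replicate 5 form a cluster of their own. These points share a library, its depth and its muscle content, and they are a description. With Cdh1 Pearson's r was 0.78 (Spearman's rho 0.68; r = 0.75 without the 2 libraries farthest from the median of Cdh1), and with Epcam it was 0.73 (rho 0.60; 0.56 without the 2). With Cd8a r was 0.54 (rho 0.42, r = 0.37 without the 2), and with Cd3e it was 0.42 (rho 0.25, r = 0.19 without the 2). The relations with Epcam, Cd8a and Cd3e thus rested in part on those libraries. By gene, r with Cdh1 ran from 0.31 for Cdc45 to 0.93 for Plk1 with a median of 0.74, a median that 12.6% of all genes exceeded. The median over the 41 genes was 0.67 with Epcam, 0.43 with Cd3e and 0.51 with Cd8a. Of all genes, 17.5% exceeded that median with Epcam, 10.7% with Cd3e and 5.5% with Cd8a. In the 10 libraries of 3wk alone r was 0.86 with Cdh1, 0.89 with Epcam, 0.72 with Cd3e and 0.69 with Cd8a, and without the 2 farthest libraries it was 0.89, 0.72, 0.25 and 0.29. In the 15 libraries of 5wk other than the cured ones and anti-PD1 replicate 5, r was 0.77 with Cdh1 (rho 0.48), 0.77 with Epcam (rho 0.41), 0.30 with Cd3e (rho 0.12) and 0.48 with Cd8a (rho 0.34). Without the 2 farthest libraries it was 0.36, 0.29, 0.10 and 0.40, so that at 5wk the relation with the epithelial genes rested on those libraries. The 2 libraries left out can differ between markers, so these last values cannot be ranked against each other.

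**Figure D5:**
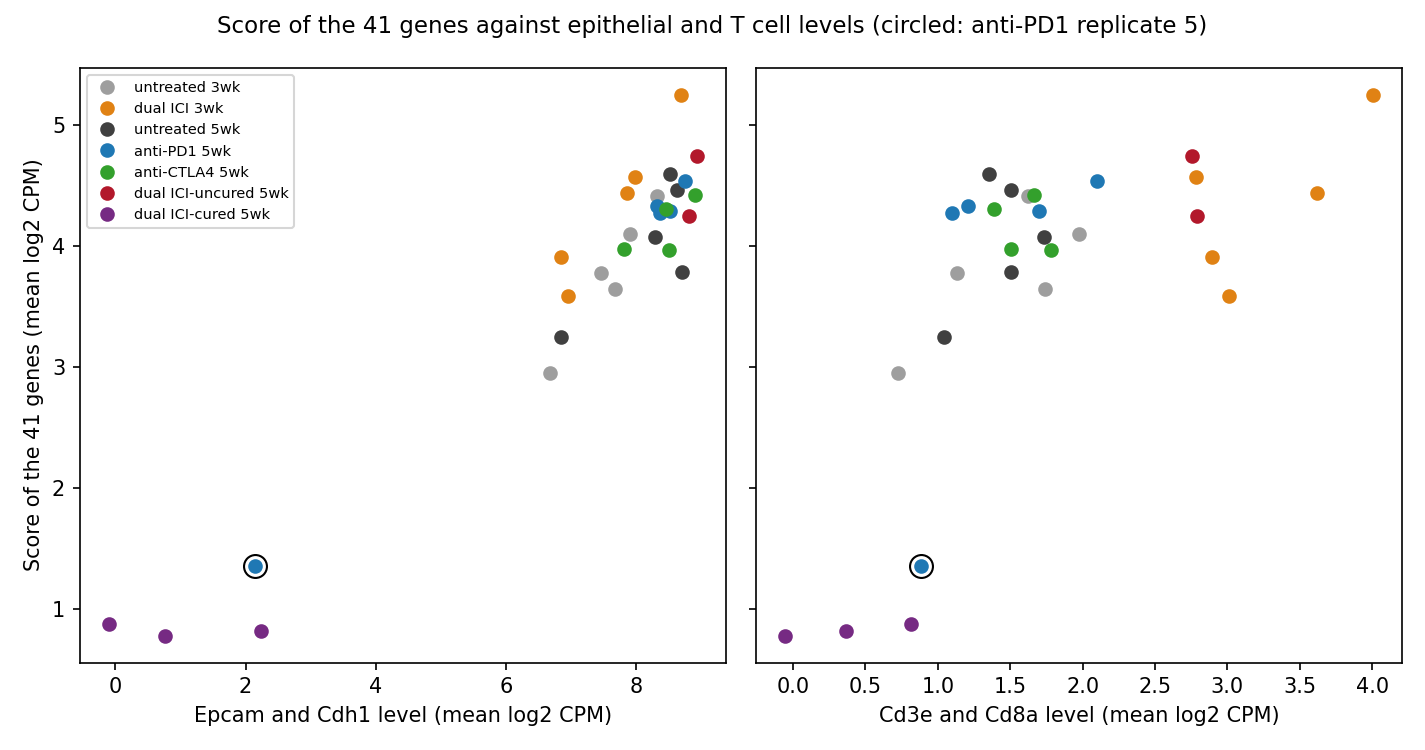
Score of the 41 genes (mean log2 CPM) against the epithelial level and the T cell level in 29 libraries, coloured by group, with anti-PD1 replicate 5 circled. Among tumor-bearing libraries the 2 lowest scores lie at the 2 lowest epithelial levels, the cured libraries lie at the lower left between -0.09 and 2.23, and on the T cell axis the dual ICI libraries of 3wk lie apart to the right of the untreated ones.

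The 41 genes moved together. Over the same 25 libraries the median r over their 820 pairs was 0.90 and the lowest was 0.63, with medians of 0.92 among mitosis genes and 0.88 among replication genes. Spc24 (median r with the others 0.74), Aurka (0.79) and Cdc45 (0.79) were the least tied to the rest. This also describes libraries that share depth and tissue makeup.

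Other cell cycle genes were followed in 7 lists beside the 41. Against cured tissue, untreated 5wk libraries had higher levels in 7 of 9 polymerase, primase and clamp loader genes, 5 of 5 condensin genes, 9 of 10 origin licensing genes, 3 of 6 FoxM1 and MuvB genes, 4 of 8 Rb and E2F genes, 6 of 8 G1 cyclins and kinases and 3 of 7 CDK inhibitors (edgeR adjusted p under 0.05), where 26.7% of all genes were called higher. Of all these, Lin52, a MuvB subunit, was the gene called lower, at -0.91. Foxm1, the transcription factor of the G2 and M genes, had 36.4, 15.4, 41.5, 24.9 and 21.9 CPM in untreated and 1.33, 1.07 and 1.11 CPM in cured libraries, a log2 fold change of 4.55 ± 0.38 (edgeR adjusted p = 0.000125), which lay within the range of the mitosis genes. E2f1, an activator of S phase genes, had 1.27 ± 0.27, Ccnd1 1.43 ± 0.25, Ccne1 1.84 ± 0.46 and Cdt1, which loads the MCM helicase with Cdc6, 2.63 ± 0.39. The inhibitor Cdkn2a changed most, at 7.37, with 85.0, 38.2, 79.2, 111 and 93.9 CPM against 1.07, 0.24 and 0.15 CPM, while Cdkn1a (p21) had 46.4 ± 16.7 CPM (SD, n = 5) against 62.6 ± 7.19 CPM (n = 3) and did not pass (-0.45 ± 0.29; edgeR adjusted p = 0.226).

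Under dual ICI at 3wk none of the 7 lists had a called gene, with Foxm1 at 0.55 ± 0.41 and E2f1 at 0.19 ± 0.17. At a given epithelial level 3 of 9 polymerase and clamp loader genes were called (Prim1, Rfc3 and Rfc4), with 2 of 5 condensin genes (Ncapg and Ncaph), 3 of 10 licensing genes (Gmnn, Mcm10 and Dbf4) and 1 of 8 Rb and E2F genes (E2f8), all higher, where 3.02% of all genes were called higher. No G1 cyclin or kinase, CDK inhibitor or FoxM1 and MuvB gene was called there. Between untreated 5wk and 3wk libraries the called genes of these lists were 1 of 8 G1 cyclins and kinases, Cdk4 at 0.59, and 2 of 7 CDK inhibitors, Cdkn2b at 1.21 and Cdkn2a at 1.66, all higher at 5wk, where 6.24% of all genes were called higher.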

How the data were processed

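The authors deposited a table of read counts per gene, of which the counts of 24421 gene symbols in 29 libraries were used as deposited. The submitters' processing notes name STAR 2.7.0f, featureCounts 1.6.4 and the mouse build mm10, while the study's methods name STAR with HTSeq; the strand setting is not given in the sources used here, so reads of overlapping genes cannot be told apart. No pair of libraries within a group agreed within sampling noise. Of the table, 20929 genes had a count, and library totals lay between 25989217 and 31219650.

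The members and lists were chosen with earlier results of these data known. Comparisons used edgeR 4.0.16 (quasi-likelihood test, TMM scaling, the low-count filter of edgeR) in R 4.3.3 over the libraries compared, with p-values adjusted by Benjamini-Hochberg across every gene in the fit and a threshold of 0.05. All 41 members passed the filter in each comparison. Log2 CPM for scores used a prior count of 2. Slopes came from 1 fit over 29 libraries with group terms. Named genes were 15 set members, the 3 highest and 3 lowest members of a comparison, and Foxm1, E2f1, Ccnd1, Ccne1, Cdkn1a and Cdt1, with called genes of the regulator lists (Hmgb2 and the CPM of Cdc45 and Aurka were added by their role in a result). Alternatives were DESeq2 1.42.0, upper-quartile scaling, no filter, at least 10 counts in every library, a fit over all libraries, a replicate block, marker levels as covariates and each library left out in turn. The test was checked on simulated counts with known changes. Exon overlaps and lengths came from GENCODE vM21, matched for 23376 symbols (95.7%), and promoters from RefSeq. Of the marker genes, Trac, Trbc2 and Ly6g were not in the table. Intervals cover counting and library spread only, and figures were drawn with matplotlib 3.10.9.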

Additional observations from a re-analysis of the deposited data

Results flagged for a closer look

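A library was marked where its gap to the nearest library of its group took up an unusually large part of the group's range (Dixon's criterion at 95%), which chance alone gives in about 1 of 20 groups; 100 sets of values were examined and 19 were marked. Nearly all of them were 1 library, anti-PD1 replicate 5 of 5wk, which was the lowest of its group by a wide gap. Its score was 1.36 for the 41 genes, where the nearest library of the group had 4.27, 0.77 for mitosis (nearest 4.00) and 2.56 for replication (nearest 4.70), beside an epithelial level of 2.15 (nearest 8.32). In log2 CPM it had 2.31 for Mki67, 2.30 for Top2a, 0.65 for Cdk1, 0.65 for Ccnb1, 0.74 for Plk1, 1.16 for Aurkb, 0.39 for Birc5, 0.50 for Cdc20 and 0.95 for Ube2c among mitosis genes. Among replication genes it had 4.03 for Mcm2, 1.92 for Mcm5, 1.71 for Rrm2 and 0.33 for Cdc6. The other replication and mitosis genes followed by name, Pcna and Cenpa, were not marked.

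Untreated replicate 2 of 5wk had the lowest epithelial level of its group, 6.84, with the nearest library at 8.29. Anti-CTLA4 replicate 1 had the highest Cdc20 of its group, 5.34 in log2 CPM, with the nearest library at 4.53. The cause of these gaps was not tested.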

How the results depend on the processing

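Over all comparisons, values of single named genes were recomputed in 965 settings, of which 849 kept direction and side of the threshold, 70 lost and 21 gained the call, and 25 changed sign. The cause of these changes was not tested unless the setting itself shows it.

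Other tools and filters changed counts of genes, and in some fits those of the members as well. With DESeq2, 502 genes were called under dual ICI at 3wk (1377 with the epithelial level), 3168 genes with 2 members between untreated 5wk and 3wk, 17 in uncured against untreated, 46 in all dual ICI against untreated at 5wk, and 1 for the difference of the effects. At least 10 counts in every library left out members and gave medians of 2.95 (untreated) and 3.38 (uncured) against cured. A fit over all 29 libraries called 1 member higher from 3wk to 5wk and, for all dual ICI against untreated, 2693 genes with 35 members lower.

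Replicate numbers are not known to pair the libraries. Same-numbered libraries deviated together with correlations of mixed sign, from -0.30 to 0.62 under dual ICI at 3wk and from -0.70 to 0.74 over the other comparisons. The library names of the dual ICI group of 3wk also carry a numbering that partly differs from the replicate numbers. With the replicate block, 209 genes were called under dual ICI at 3wk, 5 members higher from 3wk to 5wk, 4016 genes between untreated and cured, and for the T cell slope 2 genes and 0 members; the pairing of uncured with cured libraries was not possible because they share no number.

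With the epithelial level as covariate, 781 genes and 27 members were called at 3wk, and 1 member lower from 3wk to 5wk. Against cured libraries, which this level separates, it left 0 genes and 0 members called for untreated (median 0.84) and for uncured tissue (median 3.09); signs turned for Pcna (-0.049), Mcm2 (-0.53), Cdc6 (-0.63), E2f1 (-0.85), Ccne1 (-2.46), Cdkn1a (0.70) and Cdt1 (-0.92) in untreated, for Ccnb1 (-1.60) in uncured, and for Aurka (0.34) in all dual ICI against untreated.

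With the T cell level as covariate, 1 gene was called at 3wk and the median was -0.91, with Cenpe at -1.38, Ccnb1 -1.16, Birc5 -0.93, Plk1 -0.85, Mcm2 -0.56, Tyms -0.64, Mki67 -1.14, Top2a -1.19, Cdk1 -0.96, Mcm5 -0.49, Pcna -0.19 and Foxm1 -1.31. It called 2 members higher from 3wk to 5wk, moved the median of uncured against untreated to -0.81 with Cdc6 at -0.53, left 0 genes and 0 members for untreated against cured (median 2.70), 1 gene and 0 members for uncured against cured (median 2.99), and called 2577 genes with 34 members lower for all dual ICI against untreated.

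The median epithelial slope was 0.87 at 3wk alone and 0.71 without the cured libraries and anti-PD1 replicate 5, an alternative chosen after seeing the data. The T cell slope gave 6 genes, 0 members and a median of 0.24 with both levels, 2 genes and 0 members at 3wk alone, 0 members in the 5wk libraries other than cured, 37 members without group terms, and 655 genes with 7 members without the cured libraries and anti-PD1 replicate 5. Without group terms the slope also takes in differences between groups, and the share of all genes called there is not given.

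Leaving out each library in turn gave 6 (without untreated replicate 5) to 119 genes under dual ICI at 3wk, and at a given epithelial level 420 (without untreated replicate 4) to 1017 genes with 13 to 25 members. From 3wk to 5wk it gave 654 (without untreated 3wk replicate 5) to 4915 genes (without untreated 5wk replicate 2) and 0 to 6 members, with Bub1 from -0.43 to 0.0009. Against untreated, Rrm2 ran from -0.0013 to 0.60 under anti-PD1 and Spc24 from -0.53 to 0.0849 in uncured libraries, of which 1 was left. Untreated against cured gave 4491 (without cured replicate 3) to 9388 genes. Uncured against cured gave medians from 3.61 to 4.21 and score differences from 3.42 to 3.91, the lone uncured library being assumed to vary like the others. The T cell slope gave 4 (without dual ICI 3wk replicate 4) to 5627 genes and 0 to 38 members.

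No member was at 0, but Bub1, Ccnb1, Cenpf, Nuf2, Kif2c and Ttk had few counts in cured libraries, which limits the precision of their fold changes.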
